A study of Mus musculus with 18 samples.

Results

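The 10 genes described here encode transcription factors that establish and keep the identity of sensory neurons: Pou4f1, Isl1, Isl2, Prdm12, Tlx3, Prrxl1, Runx1, Runx3, Etv1 and Shox2. They were taken by name, for their known roles and with earlier results of these data known, out of 47643 genes counted in each library. The neurons came from dorsal root ganglia of e13.5 CD-1 mouse embryos, for which the labels name no transgene or mutation, and were grown as spot cultures (eDRG) in medium that, by the study's methods, held FDU, a compound that kills dividing cells. RNA was sequenced from uninjured control spots collected at DIV7 and from spots whose axons were cut with a blade 1, 3, 8, 16 or 24 hours earlier (hours post injury, HPI), with 3 replicates in each of the 6 groups. The labels place collection of the injured spots at DIV7, whereas the study's text places the injury itself at DIV7. The comparisons ask how the levels of these factors change as cultured sensory neurons respond to axotomy. With 1 control group, any difference in culture age between groups cannot be told apart from time after injury.

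In development, Pou4f1 (also called Brn3a) and Isl1 act in nearly all sensory neurons, where they end the program of the progenitors and open the genes of the differentiated cell, and Isl2 is a close relative of Isl1 in the LIM-homeodomain family. Prdm12, Tlx3 and Prrxl1 (also called Drg11) belong to the path of pain-sensing neurons, in which Prdm12 is needed for the cells to form, Tlx3 for their glutamatergic and sensory channel genes, and Prrxl1 for their connections in the dorsal horn of the spinal cord. The diversification factors then divide sensory neurons into classes, Runx1 among pain-sensing neurons, Runx3 in Ntrk3-positive proprioceptors, Etv1 in proprioceptors as they reach the spinal cord, and Shox2 in Ntrk2-positive touch neurons.

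The bases before the transcription start of 3 of these genes are shown because their levels moved in different ways after injury, Runx1 up at 16 HPI, Etv1 down at 16 HPI, and Isl2 down at 8 HPI and up at 24 HPI. The sequences are from RefSeq on GRCm38.p6, which had an entry for all 10 genes, and run 5′ to 3′ on the strand of the gene. Runx1 has a distal and a proximal start, and both are given. Etv1 has a further start that is not shown, since 241 of the 250 bases before it are annotated exon bases. The printed Isl2, Etv1 and proximal Runx1 bases lie inside the span that GENCODE vM21 gives the gene, outside its exons. Up to 250 bases before each start are printed and annotated exon bases at the start are left out, which removed 1 base for Isl2 and 75 bases for the distal Runx1 start. Capitals mark matches, on either strand, to an AP-1 site (TGANTCA), a CRE (TGACGTCA), a homeodomain core (TAATTA) or a Runt site (TGTGGT), none of which overlapped another here.
Runx1 distal, chr16:92826150-92826324, minus strand: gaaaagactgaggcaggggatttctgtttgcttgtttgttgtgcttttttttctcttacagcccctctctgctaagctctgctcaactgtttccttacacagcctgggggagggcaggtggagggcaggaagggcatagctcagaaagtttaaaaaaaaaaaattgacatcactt
Runx1 proximal, chr16:92697330-92697579, minus strand: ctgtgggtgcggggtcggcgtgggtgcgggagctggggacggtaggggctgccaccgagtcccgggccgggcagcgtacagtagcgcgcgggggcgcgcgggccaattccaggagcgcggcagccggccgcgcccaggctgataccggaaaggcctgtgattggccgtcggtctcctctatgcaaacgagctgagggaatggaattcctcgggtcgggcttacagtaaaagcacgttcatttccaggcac
Etv1, chr12:38779832-38780081, plus strand: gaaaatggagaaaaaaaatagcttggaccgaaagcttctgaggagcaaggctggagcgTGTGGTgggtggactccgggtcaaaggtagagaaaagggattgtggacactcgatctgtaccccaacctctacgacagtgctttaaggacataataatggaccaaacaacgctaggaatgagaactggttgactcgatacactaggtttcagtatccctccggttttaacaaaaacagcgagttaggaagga
Isl2, chr9:55540899-55541147, plus strand: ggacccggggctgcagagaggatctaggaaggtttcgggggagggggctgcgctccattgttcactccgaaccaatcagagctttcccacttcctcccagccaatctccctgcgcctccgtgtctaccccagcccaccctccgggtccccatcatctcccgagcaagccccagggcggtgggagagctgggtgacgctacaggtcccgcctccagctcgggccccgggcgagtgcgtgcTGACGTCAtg
The Isl2 window held a CRE that began 11 bases before the start, and 1.55% of 32851 promoter windows of 250 bases held one. The Etv1 window shown held 1 Runt match beginning 192 bases before the start, and 14.0% of all windows held at least 1. The window of the further Etv1 start had no match to any of the 4 motifs. Neither Runx1 window had a match to any of the 4 motifs, and no window of the 10 genes had a match to the AP-1 site or the homeodomain core, which were found in 6.75% and 4.84% of all windows. Of the other genes, Prrxl1 had 1 Runt match and Runx3 had 2. A GC box (GGGCGG), also searched but not marked, was found in 32.7% of all windows. Of the windows shown only that of Isl2 held one, beginning 78 bases before the start. A match describes letters and was not tested as a binding site.

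Counts on genes ranged from 9478891 to 23082327 per library, with 8 HPI replicate 2 the shallowest. Levels within a gene are given as CPM, its counts scaled to the size of the library with TMM factors, and 3 counts, used as the limit of detection, came to between 0.13 and 0.3165 CPM. Residual rRNA genes took 4.6% of the counts in 16 HPI replicate 1 and between 0.691% and 1.7% in the others, and the main results at 16 HPI are also given without that library. The replicate number acted as a batch: libraries of different groups that shared a number deviated together from their group means, so the number was kept as a term in the fit. All 7 sensory neuron markers listed were detected, among them Avil at 741 ± 128 CPM and Prph at 4020 ± 191 CPM (SD, n = 3) in the control. The motor neuron gene Mnx1 had no count in any library, Itgam of myeloid cells had at most 1 and the sympathetic neuron gene Gata3 at most 2. Other markers of these cells were higher, among them Slc5a7 of spinal cord neurons, Phox2a of sympathetic neurons, and Aif1 and Cd68 of myeloid cells. In the control, the summed level of 8 spinal cord neuron markers was between 12.8 and 18.9 CPM. That of 5 sympathetic neuron markers was between 3.66 and 9.36 CPM. The part of such cells in the levels of the factors was not tested. Because whole cultures were sequenced, fewer cells of a type and less RNA per cell cannot be told apart.

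In the uninjured culture, Prdm12 and Pou4f1 were the most abundant of the 10 factors, and Runx1 and Runx3 were at the bottom. Levels are compared between genes as RPKM, the TMM-scaled CPM divided by the total exon length in kilobases. Prdm12 had 80.1 ± 11.7 RPKM and Pou4f1 60.2 ± 4.21 RPKM (SD, n = 3). Isl1 at 19.6 ± 5.68 RPKM, Tlx3 at 19.4 ± 2.31 RPKM, Isl2 at 17.4 ± 7.03 RPKM and Prrxl1 at 15.5 ± 3.35 RPKM lay close together. Etv1 had 5.56 ± 1.71 RPKM, Shox2 1.43 ± 0.145 RPKM and Runx1 0.151 ± 0.0522 RPKM. Neighbours in this order did not overlap in the control libraries except from Isl1 to Prrxl1, where each gene overlapped the next. Prdm12 was the highest of the 10 in 17 of the 18 libraries and Pou4f1 in the other one, so the top of the order held across the time course. Over the longest transcript in place of all exons, Isl1 came to 30.8 RPKM, Prrxl1 to 21.7, Etv1 to 11.2 and Runx1 to 0.309.

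**Figure D1:**
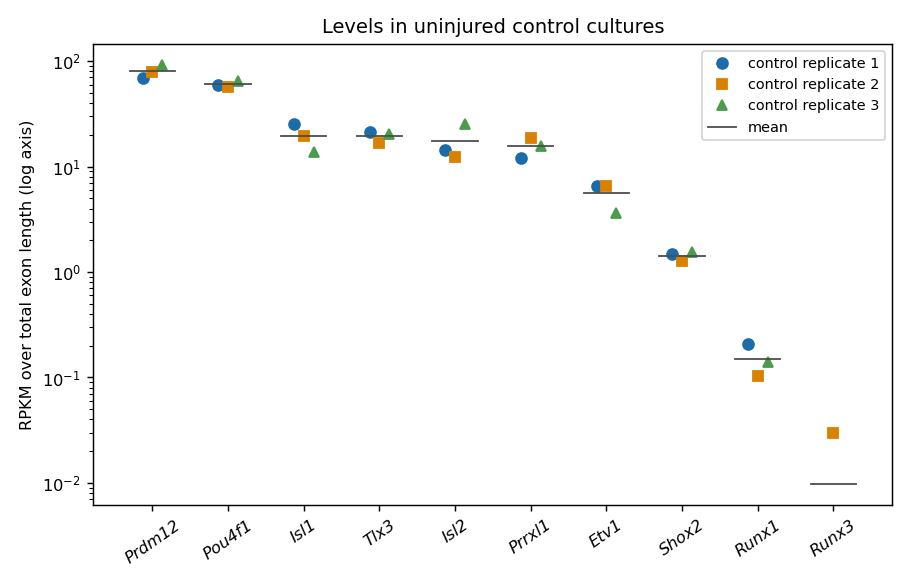
RPKM over total exon length (log axis) of the 10 factors in the 3 uninjured control libraries, ordered by their mean, with a point per library and a line at the mean. Prdm12 and Pou4f1 stand above 50 RPKM, Runx1 lies near 0.151 RPKM, and Runx3 shows 1 point because its count was 0 in the other control libraries, which a log axis cannot show.

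Runx3 (ENSMUSG00000070691.10, chromosome 4 of GRCm38 from 135120652 to 135177990) was not detected. Its counts summed to 10 over all 18 libraries, with no more than 2 in any library and 0 in 11 of them, which is below the limit of 3 counts everywhere. No fold change is given for it. The remaining 9 genes passed the filter of over 1 CPM in at least 3 libraries and were tested, each with over 1 CPM in all 18 libraries.

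The plot of levels by library shows that the replicate number set much of the spread within a group. Isl1 was highest in replicate 1 and lowest in replicate 3 in all 6 groups, with a mean of 99.2 CPM over the replicate 1 libraries and 62.2 CPM over the replicate 3 libraries. Etv1 was lowest in replicate 3 in all 6 groups, with 44.9 CPM against 77.8 CPM in replicate 1. Runx1 was highest in replicate 1 and lowest in replicate 2 in all 6 groups, with 4.09 CPM and 1.85 CPM. For Isl1 and Etv1 this span between replicate numbers, 1.59-fold and 1.73-fold, was wider than the span between the highest and lowest group means, 1.29-fold and 1.40-fold. Changes were therefore read within replicates, and with the replicate term left out no member passed in any comparison.

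**Figure D2:**
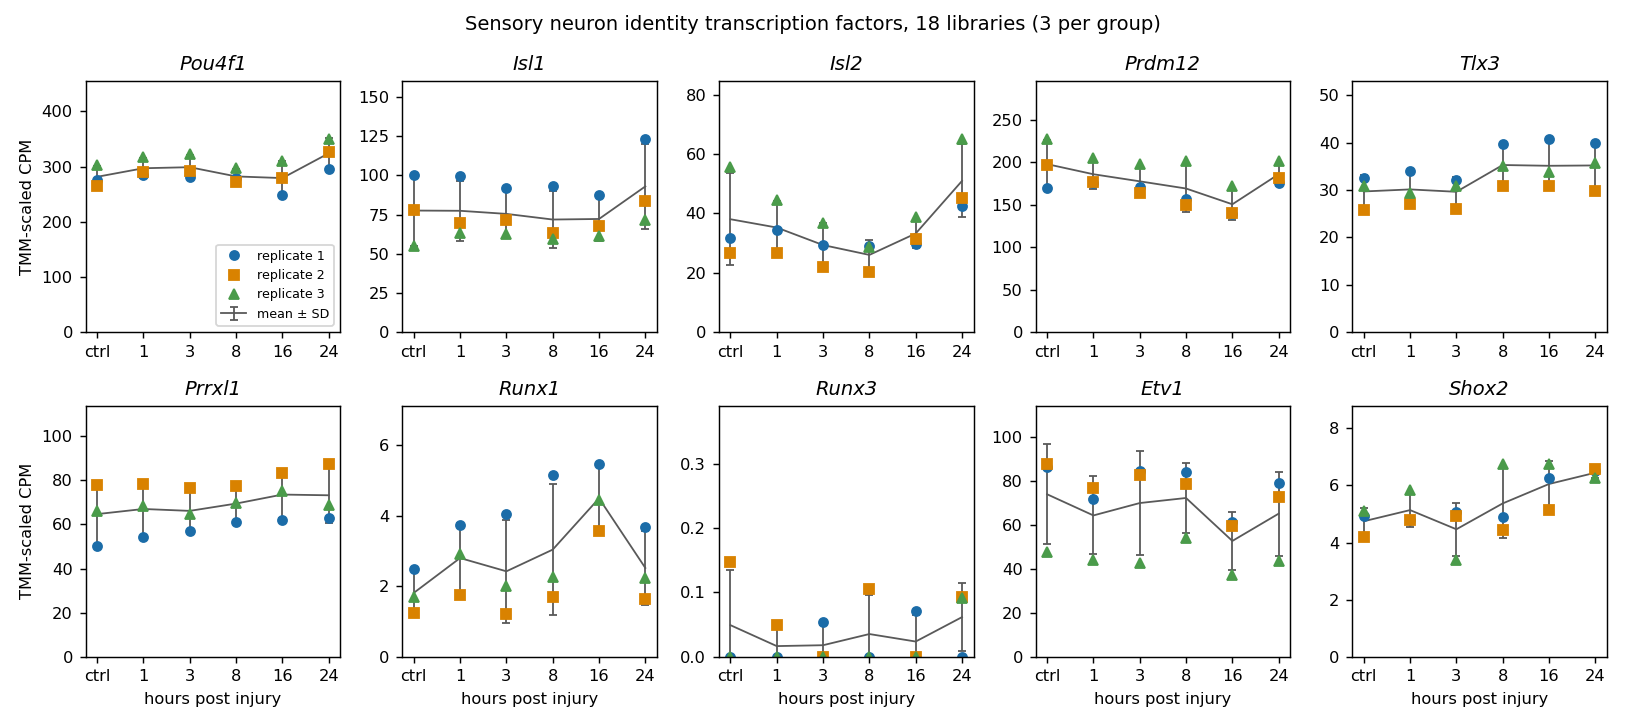
TMM-scaled CPM of each factor (vertical axes from 0) against hours post injury, with a point per library shaped by replicate number and the group mean ± SD (n = 3) as a line with bars. Runx1 has its highest mean at 16 HPI, 4.49 CPM, Prdm12 its lowest at 16 HPI, 150 CPM, and Isl2 its lowest at 8 HPI and highest at 24 HPI, while the replicates keep much the same order from group to group.

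At 1 and 3 HPI none of the 9 genes passed edgeR's quasi-likelihood test at an adjusted p under 0.05, a threshold that 0.276% of the 13771 genes tested passed at 1 HPI and 0.189% at 3 HPI. At each of these times 2 of the 9 had an unadjusted p under 0.05, Etv1 and Runx1 at 1 HPI and Isl2 and Prdm12 at 3 HPI, and DESeq2's Wald test called none either. The comparisons with the control share the same 3 control libraries. The labels do not say whether replicates came from separate litters or cultures, so the p-values measure only the spread between these samples, which may be technical.

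At 8 HPI, 4 of the 9 passed, Runx1 and Tlx3 higher and Isl2 and Prdm12 lower, beside 7.68% of all genes tested, 3.78% as higher and 3.9% as lower. At 16 HPI, 5 passed, Runx1, Tlx3 and Prrxl1 higher and Etv1 and Prdm12 lower, beside 22.2%, 10.7% as higher and 11.5% as lower. At 24 HPI, 5 passed, Pou4f1, Isl1, Isl2, Tlx3 and Prrxl1, all higher, beside 15.0% of all genes in either direction, 5.99% as higher and 9.03% as lower. Across the 9 genes the median log2 fold change came to 0.005 at 8 HPI, then -0.01 at 16 HPI and finally 0.24 at 24 HPI, where the medians of all genes tested were -0.0009, -0.0022 and 0.002. The summed level of the 10 members lay between 753 and 793 CPM in the control, 681 and 740 CPM at 16 HPI, and 828 and 845 CPM at 24 HPI. These sums are not scaled for gene length and mostly follow Pou4f1 and Prdm12, with means of 281 and 198 CPM in the control. Over the 5 injured time points together, 8 of the 9 varied, beside 30.0% of all genes, and Shox2 did not pass (adjusted p = 0.0701 by edgeR's quasi-likelihood test).

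**Figure D3:**
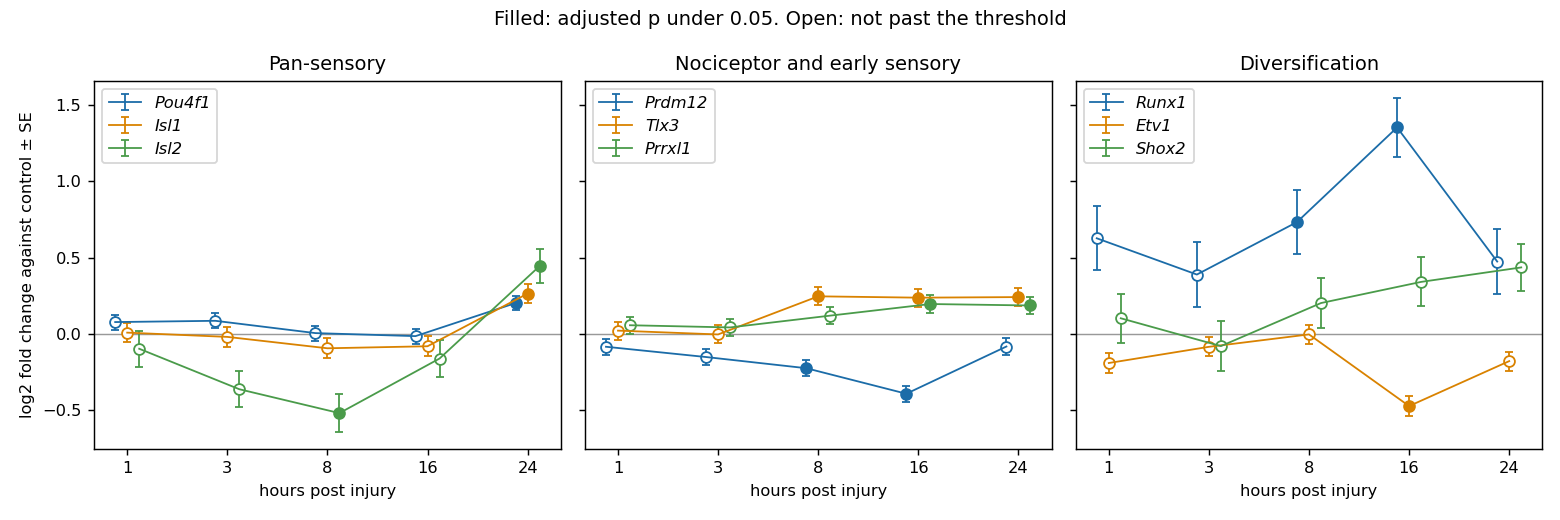
Log2 fold change against the control with its standard error at each time after injury, in 3 panels by role, with filled points where the adjusted p was under 0.05 and open points elsewhere. Runx1 peaks at 16 HPI at 1.35, Etv1 and Prdm12 reach their lowest values there, and Pou4f1, Isl1 and Isl2 are above 0 and filled at 24 HPI. The plot rests on the fit with the replicate term, without which no point would be filled.

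Pou4f1 (ENSMUSG00000048349.9, chromosome 14 of GRCm38 from 104461676 to 104467999), the POU-homeodomain factor of sensory neurons, did not pass against control up to 16 HPI and was higher at 24 HPI. The control libraries had 275, 266 and 303 CPM in replicates 1 to 3, the 16 HPI libraries 248, 279 and 310 CPM, and the 24 HPI libraries 295, 327 and 350 CPM. The 24 HPI libraries overlapped the control as groups, and each was above the control of its own replicate number. At 24 HPI it had risen by 0.20 ± 0.05 on the log2 scale (SE, adjusted p = 0.00741), or 15.0%, and from 16 to 24 HPI it rose by 0.22 ± 0.05 (adjusted p = 0.00611). Without control replicate 2 the value at 24 HPI was 0.18 and no longer passed (adjusted p = 0.0515), and without 16 HPI replicate 1 the step from 16 to 24 HPI was 0.17 (adjusted p = 0.0818). At 1, 3, 8 and 16 HPI its log2 fold changes were 0.08, 0.09, 0.005 and -0.01.

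Isl1 (ENSMUSG00000042258.13, chromosome 13 of GRCm38 from 116298281 to 116309689), its partner in opening the sensory program, likewise passed as higher at 24 HPI alone. It had 99.9, 77.8 and 55.0 CPM in the control, 87.8, 67.7 and 61.1 CPM at 16 HPI and 123, 83.9 and 71.8 CPM at 24 HPI. Replicate 1 was the highest each time, and the groups overlapped. Its log2 fold change at 24 HPI was 0.26 ± 0.06 (adjusted p = 0.00747), lost without control replicate 3 (0.17, adjusted p = 0.0742) or 24 HPI replicate 1 (0.22, adjusted p = 0.0663), and the step from 16 to 24 HPI was 0.34 ± 0.06 (adjusted p = 0.00144).

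Isl2 (ENSMUSG00000032318.12, chromosome 9 of GRCm38 from 55538672 to 55546180) moved both ways. Its control libraries had 31.7, 26.8 and 55.6 CPM, with replicate 3 well above the others. It had 29.1, 20.1 and 28.8 CPM at 8 HPI, and 42.5, 45.3 and 65.1 CPM at 24 HPI. All 3 replicates were below their control at 8 HPI and above it at 24 HPI. On the log2 scale the difference from control was -0.52 ± 0.12 at 8 HPI (adjusted p = 0.0134) and 0.44 ± 0.11 at 24 HPI (adjusted p = 0.0109). At 8 HPI the call rested on replicate 3, and without control replicate 3 the value was -0.32 (adjusted p = 0.168) and without 8 HPI replicate 3 it was -0.37 (adjusted p = 0.159). Leaving out 24 HPI replicate 2 or either of the first 2 control replicates gave 0.36, 0.37 and 0.37 at 24 HPI, none of which passed. At 16 HPI, with 29.6, 31.5 and 38.7 CPM, it was lower than at 24 HPI with no overlap of the libraries, and the difference between these times, 0.61 ± 0.12 (adjusted p = 0.00186), passed with every library left out in turn. The shallowest library, 8 HPI replicate 2, gave its lowest level.

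Prdm12 (ENSMUSG00000079466.2, chromosome 2 of GRCm38 from 31640037 to 31655795), needed for pain-sensing neurons to form and a partner of the histone methyltransferase Ehmt2, declined to 16 HPI and came back by 24 HPI. It had 170, 196 and 227 CPM in the control, 157, 149 and 201 CPM at 8 HPI, 139, 140 and 172 CPM at 16 HPI, and 175, 181 and 201 CPM at 24 HPI. The 16 HPI libraries were each below their own control and below every 24 HPI library, and only the highest of them, 172 CPM, was above the lowest control library. Its log2 fold change was -0.22 ± 0.05 at 8 HPI (adjusted p = 0.0135) and -0.39 ± 0.05 at 16 HPI (adjusted p = 2.17e-05), where the level dropped by 23.8%. At 24 HPI it was -0.08 ± 0.05 (adjusted p = 0.324). The step from 16 to 24 HPI, 0.31 ± 0.05 (adjusted p = 0.000774), passed with each library left out. At 8 HPI the call was lost without replicate 2 of either group or without control replicate 3. Without 16 HPI replicate 1 the value at 16 HPI was -0.39 (adjusted p = 0.000278).

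Prdm12 shares 200 exon bases with an antisense gene, Gm13425, which had between 949 and 2535 counts in a library. The strand setting of the counting was not stated, so reads in the shared bases cannot be assigned with certainty. Gm13425 itself was lower at 16 HPI by a log2 difference of -0.22 ± 0.05 (adjusted p = 0.0019), and also at 24 HPI (-0.18 ± 0.05, adjusted p = 0.0136), when Prdm12 did not pass. The part of the shared reads in the change of Prdm12 was not tested.

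Tlx3 (ENSMUSG00000040610.7, chromosome 11 of GRCm38 from 33200752 to 33203589), a homeobox factor that sets glutamatergic and pain-sensing properties, was higher than in the control at 8, 16 and 24 HPI. It had 32.5, 25.7 and 30.9 CPM in the control, 39.8, 30.9 and 35.1 CPM at 8 HPI, 40.8, 30.8 and 33.8 CPM at 16 HPI, and 39.9, 29.9 and 35.8 CPM at 24 HPI. Each library of these times was above the control of its number, while the groups overlapped. Its log2 fold changes were 0.25 ± 0.06, 0.24 ± 0.06 and 0.24 ± 0.06 at the 3 times (adjusted p = 0.0143, 0.00555 and 0.00738). After a correction for GC content and length they were 0.08 at 16 HPI (adjusted p = 0.413) and 0.16 at 24 HPI (adjusted p = 0.078), so neither call held under that correction, and the exons of Tlx3 have the highest GC content of the 10 genes, 67.3%. The call at 8 HPI was lost without control replicates 1 or 2 and without 8 HPI replicates 1 or 3.

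Prrxl1 (ENSMUSG00000041730.13, chromosome 14 of GRCm38 from 32599407 to 32649246), a homeobox factor of the same pathway, passed at 16 and 24 HPI by small amounts. It had 50.1, 77.9 and 66.0 CPM in the control, 62.0, 83.3 and 75.3 CPM at 16 HPI, and 63.1, 87.6 and 69.0 CPM at 24 HPI. Replicate 1, the lowest of the control, gained most. Against control it differed by 0.20 ± 0.06 on the log2 scale at 16 HPI (adjusted p = 0.0152) and 0.19 ± 0.06 at 24 HPI (adjusted p = 0.0277). Without control replicate 1 these were 0.14 (adjusted p = 0.106) and 0.13 (adjusted p = 0.147), and they also failed without 16 HPI replicate 3 (adjusted p = 0.0768), 24 HPI replicate 1 (adjusted p = 0.112) or 24 HPI replicate 2 (adjusted p = 0.119).

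Runx1 (ENSMUSG00000022952.16, chromosome 16 of GRCm38 from 92601466 to 92826149), the Runt-domain factor that divides pain-sensing neurons, had the largest change of the 9 genes and the only one over 2-fold with an adjusted p under 0.05, which 1.18% of all genes tested reached upward at 16 HPI. Its level was low throughout, between 16 and 85 counts in a library. It had 2.49, 1.25 and 1.69 CPM in the control and 5.47, 3.57 and 4.43 CPM at 16 HPI. Every 16 HPI library was above every control library. Its log2 fold change at 16 HPI was 1.35 ± 0.19 (adjusted p = 3.61e-05), or 2.55-fold, and it was 1.11, 1.44 and 1.34 within replicates 1, 2 and 3.

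Around that peak the changes were smaller. Runx1 had 3.73, 1.74 and 2.91 CPM at 1 HPI, 4.04, 1.22 and 2.00 CPM at 3 HPI, 5.14, 1.70 and 2.27 CPM at 8 HPI, and 3.67, 1.64 and 2.24 CPM at 24 HPI. Replicate 1 was the highest at each of these times and reached into the range of the 16 HPI libraries, and replicates 2 and 3 stayed below 3 CPM. At 8 HPI the log2 fold change was 0.73 ± 0.21 (adjusted p = 0.0363), lost by DESeq2's Wald test and without any 1 of the control libraries or 8 HPI replicate 1, and at 24 HPI it was 0.47 ± 0.21 (adjusted p = 0.138). From 16 to 24 HPI it fell by 0.88 on the log2 scale (SE 0.18, adjusted p = 0.0031), and from 8 to 16 HPI it rose by 0.62 (SE 0.18, adjusted p = 0.0246), a call lost by DESeq2's Wald test (adjusted p = 0.0526) and without replicates 2 or 3 of either group. Without 16 HPI replicate 1, the library rich in rRNA, the change at 16 HPI was 1.57 (adjusted p = 2.6e-05).

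Runx1 is also made by blood cells, so their markers are set beside it. Of 8 myeloid markers, 2 passed the filter and Itgam had at most 1 count in any library. The summed level of the 8 was between 3.69 and 5.49 CPM in the control, 5.62 and 6.18 CPM at 16 HPI and 6.61 and 6.92 CPM at 24 HPI, when Runx1 had 2.52 ± 1.05 CPM (SD, n = 3). Cd68 was higher at 16 and 24 HPI (log2 fold change 0.97 ± 0.25 and 0.93 ± 0.24, adjusted p = 0.00698 and 0.0125), and Aif1 did not pass at either time (0.25 ± 0.21 and 0.46 ± 0.20). The summed level of 7 erythroid and platelet markers was between 3.41 and 6.89 CPM in the control, 3.07 and 3.69 CPM at 8 HPI, 2.98 and 6.43 CPM at 16 HPI, and 2.88 and 7.49 CPM at 24 HPI. Of these Hba-a1, an alpha globin gene with a near-identical copy that can share its reads, was lower at 8 HPI (log2 fold change -1.15 ± 0.35, adjusted p = 0.0481), in 2 of 3 replicates, and passed at no other time against control. The part of such cells in the Runx1 level was not tested.

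Over the 18 libraries, with the batch removed, the 3 tested genes whose log2 CPM ran most like that of Runx1 were Mapk6 (Pearson r = 0.885, Spearman rho = 0.849), Zfp346 (r = 0.882, rho = 0.783) and Panx1 (r = 0.868, rho = 0.723). These libraries share their groups and their batches, so the correlations only describe a shared course. Their log2 fold changes at 16 HPI were 0.29 ± 0.05, 0.35 ± 0.07 and 0.31 ± 0.04, smaller than that of Runx1.

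Etv1 (ENSMUSG00000004151.16, chromosome 12 of GRCm38 from 38779380 to 38870484), an ETS factor of proprioceptors, passed against control at 16 HPI alone, where it was lower. It had 86.2, 87.9 and 47.8 CPM in the control, 84.2, 78.6 and 53.9 CPM at 8 HPI, 61.1, 59.6 and 37.4 CPM at 16 HPI, and 79.1, 72.9 and 43.4 CPM at 24 HPI. Replicate 3 was the lowest in each group and the groups overlapped, although all 3 replicates were below their control at 16 HPI. There the log2 fold change was -0.47 ± 0.06 (adjusted p = 2e-05) and the level dropped by 27.9%, and without 16 HPI replicate 1 it was -0.46 (adjusted p = 0.000279). It differed from 8 HPI by -0.47 ± 0.07 (adjusted p = 6.66e-05) and from 24 HPI, which was higher by 0.29 ± 0.06 (adjusted p = 0.00508). At 24 HPI it was -0.18 ± 0.06 from the control (adjusted p = 0.06).

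Shox2 (ENSMUSG00000027833.16, chromosome 3 of GRCm38 from 66971727 to 66981771), a homeobox factor of touch neurons, was low and passed at no time. It had 4.93, 4.20 and 5.11 CPM in the control, 6.25, 5.15 and 6.75 CPM at 16 HPI, and 6.49, 6.59 and 6.26 CPM at 24 HPI. All injured libraries of the last 2 times were above every control library. It differed from control by 0.34 ± 0.16 on the log2 scale at 16 HPI (adjusted p = 0.139) and 0.44 ± 0.15 at 24 HPI (adjusted p = 0.0617), which passed with upper-quartile factors or with the compared groups alone. It shares 153 exon bases with Rsrc1 on the other strand, a gene that passed at none of these times.

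Neighbouring late time points were also compared with each other. From 8 to 16 HPI, 3 of the 9 passed, Runx1 higher and Etv1 and Prdm12 lower, beside 15.2% of all genes tested, 7.3% as higher and 7.86% as lower. From 16 to 24 HPI, 6 passed, Etv1, Isl1, Isl2, Pou4f1 and Prdm12 higher and Runx1 lower, beside 9.82%, 3.59% as higher and 6.22% as lower. Tlx3 and Prrxl1 differed by -0.01 and 0.08 from 8 to 16 HPI, and by 0.004 and -0.01 from 16 to 24 HPI.

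Further lists of the same pathway were chosen by function. Of 41 other transcription factors of sensory neuron development, 28 were tested, and 6 had at most 3 counts in every library, among them the early proneural genes Neurog1, Neurog2 and Neurod4. At 16 HPI 3 were higher and 9 lower, with a median log2 fold change of -0.15, beside 10.7% of all genes tested as higher and 11.5% as lower. At 24 HPI 1 was higher and 2 lower, beside 5.99% and 9.03%, so that the share passing, 3 of 28, was below the 15.0% of all genes. Sox11, a factor of young neurons, was higher by 0.77 ± 0.07 at 16 HPI (adjusted p = 3.03e-07) and Six4 by 0.43 ± 0.08. Hoxd1, a factor of pain-sensing neurons, had the largest decline of those that passed, -0.98 ± 0.10 (adjusted p = 7.89e-07), followed by Meis2 at -0.41 ± 0.08. Without the replicate term 1 was higher and 1 lower at 16 HPI.

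Of 21 cofactors of these proteins, all were tested, and 4 were higher and 7 lower at 16 HPI, beside 10.7% and 11.5% of all genes. The LIM-only protein gene Lmo1, whose product competes for the Ldb1 partner of Isl1 and Isl2, was higher by 1.24 ± 0.26 (adjusted p = 0.00127) from 0.946 ± 0.0268 CPM in the control to 2.28 ± 0.476 CPM (SD, n = 3). The corepressor gene Tle3, whose product binds Runx proteins, went from 17.0 ± 1.20 to 36.6 ± 3.48 CPM, a log2 fold change of 1.11 ± 0.09 (adjusted p = 5.38e-08). Cbfb, whose product pairs with every Runx protein on DNA, had a log2 fold change of -0.29 ± 0.06 (adjusted p = 0.00161) at 16 HPI. At 24 HPI Lmo1, Tle3 and Ssbp2 passed of the 21, a share near the 15.0% of all genes. Without the replicate term 3 cofactors were higher and 1 lower at 16 HPI.

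A further list held 32 genes that these factors are known to control or that mark sensory neurons, called downstream genes here. Of these, 23 were tested, and Mrgprd, Mrgpra3, Mrgprb4 and Nppb, genes of pain- and itch-sensing classes, had at most 3 counts in every library. At 16 HPI 1 was higher and 7 lower, beside 10.7% and 11.5% of all genes, and at 24 HPI none was higher and 6 were lower, beside 5.99% and 9.03%. Trpm8, the cold channel, was lower at both times, with log2 values of -0.78 ± 0.11 and -0.57 ± 0.10 (adjusted p = 2.26e-05 and 0.000954), and so was the sodium channel gene Scn10a, with -0.49 ± 0.06 and -0.47 ± 0.06 (adjusted p = 6.87e-06 and 2.81e-05). Scn11a and Piezo2 were also lower at both times, and Calcb was higher at 16 HPI by 0.33 ± 0.09 (adjusted p = 0.014). Without the replicate term, 1 of the 23 passed as lower at 16 HPI and 1 at 24 HPI. Of the 7 general sensory neuron markers, Scn10a and Tubb3 were lower at both 16 and 24 HPI, and the summed level of the 7 was between 9381 and 9954 CPM in the control, 7992 and 8821 CPM at 16 HPI, and 8417 and 8768 CPM at 24 HPI. The summed level of 10 glial markers was between 73.1 and 131 CPM in the control, 57.5 and 98.1 CPM at 16 HPI, and 73.2 and 108 CPM at 24 HPI, and that of 5 fibroblast markers went from between 1.77 and 5.49 CPM to between 3.45 and 8.31 CPM and then 3.08 and 9.96 CPM. Of the fibroblast markers only Dcn passed, higher at 16 and 24 HPI with log2 fold changes of 2.07 ± 0.28 and 2.22 ± 0.27. Nes of the neural crest (1.86 ± 0.45) and Top2a of dividing cells (1.44 ± 0.36) passed as higher at 24 HPI. Ccnb1 of dividing cells passed as higher at 8 HPI (0.98 ± 0.28). Of the glial markers S100b passed as lower at 16 and 24 HPI (-0.33 ± 0.07 and -0.26 ± 0.07). Their part in the results was not tested.

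**Figure D4:**
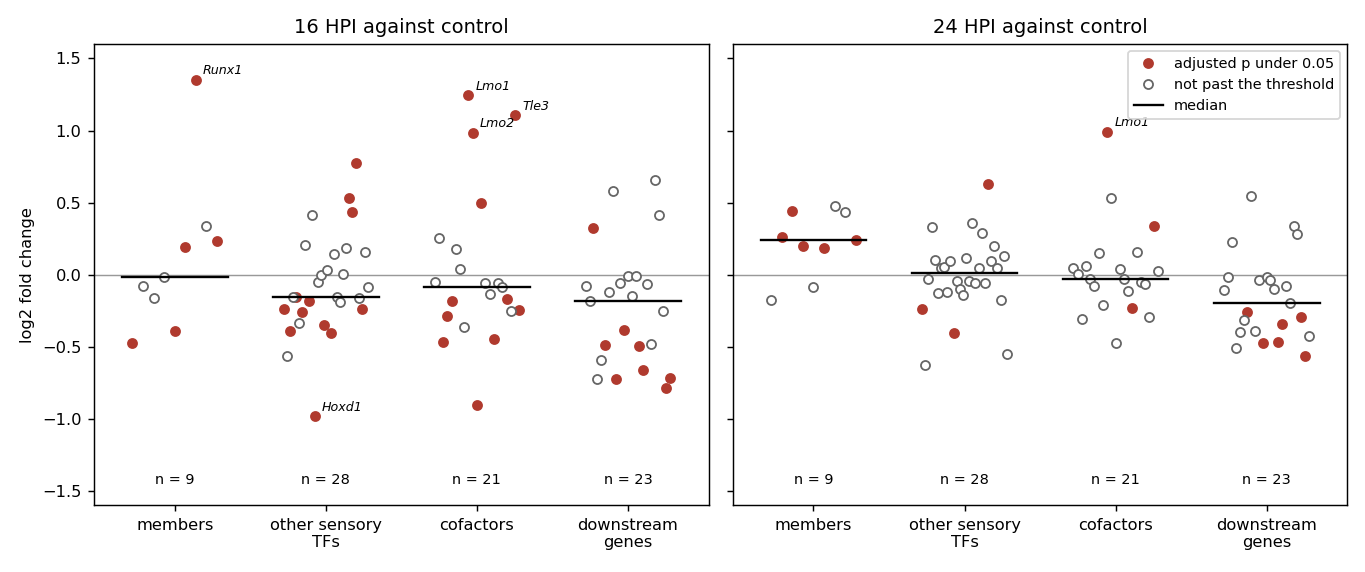
Log2 fold change of each tested gene against the control at 16 HPI (left) and 24 HPI (right) for the 9 members, 28 other transcription factors, 21 cofactors and 23 downstream genes, filled where the adjusted p was under 0.05, with a line at each median. At 24 HPI the member median is 0.24 and that of the downstream genes -0.19, and Runx1 is the member furthest from 0 at 16 HPI.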

How the data were processed

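RNA was sequenced from 18 eDRG spot cultures. Raw counts for each gene were deposited without normalization. Per the study's methods, the authors trimmed reads with cutadapt, aligned them with STAR to mm10 and counted them on GENCODE genes with featureCounts, while the submitters' processing notes name HTSeq. Per the labels, rRNA was depleted before SMARTer cDNA synthesis. Gene names came from GENCODE vM21 on GRCm38, which matched 47224 of 47643 identifiers. Between 25.24% and 33.19% of counts fell on no gene and were left out.

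Tests were run in edgeR 4.0.16 under R 4.3.3. The filter kept 13771 genes that exceeded 1 CPM in 3 or more libraries. They were tested by the quasi-likelihood test, with TMM factors and terms for time point and replicate number in 1 fit over all libraries, two-sided, with Benjamini-Hochberg adjustment. A gene passed with an adjusted p under 0.05. SE is the log2 fold change divided by the root of F. Levels are TMM-scaled CPM. Deviations from the group means were correlated across genes between libraries of different groups. The mean correlation was 0.619 over the 45 library pairs that share a replicate number and -0.308 over the 90 that do not. Deviations sum to 0 within each group, so the negative value largely follows from the positive one and adds no separate evidence. On simulated data for 16 HPI over 13771 genes, 37 of 50 genes changed 1.5-fold, 44 of 50 changed 2-fold and 98 of 100 changed 3-fold passed, with 5 false calls among 13571. The simulated counts held no replicate effect, unlike these libraries, and no change under 1.5-fold. These rates therefore check the code and do not give the power or false calls for the smaller changes seen here. The limit of detection covers counting error only.

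The members and lists were chosen with earlier results of these data known. Named from the lists are genes over 2-fold at any time. The others were chosen after their values were seen. Alternatives were other size factors, DESeq2 1.42.0, other filters, no replicate block, rRNA and mitochondrial genes left out, a GC and length correction, a fit of just the groups compared, and fits lacking 1 library at a time.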

Additional observations from a re-analysis of the deposited data

Results flagged for a closer look

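The level differed between injured time points for 6 of the 9 genes, by edgeR's quasi-likelihood test of the later against the earlier time. No uninjured cultures were matched to each time, so a difference in culture age cannot be told apart from time after injury. Runx1 was higher at 16 than at 8 HPI by 0.62 on the log2 scale (adjusted p = 0.0246), in 3 of 3 replicates. Within replicates 1, 2 and 3 that difference was 0.09, 1.03 and 0.93, so replicate 1 hardly moved. Runx1 was lower at 24 than at 16 HPI, with a difference of -0.88 (adjusted p = 0.0031), in 3 of 3 replicates. Etv1 was lower at 16 than at 8 HPI, with a difference of -0.47 (adjusted p = 6.66e-05), and higher at 24 than at 16 HPI by 0.29 (adjusted p = 0.00508). Prdm12 was lower at 16 than at 8 HPI, with a difference of -0.17 (adjusted p = 0.0405), and higher at 24 than at 16 HPI by 0.31 (adjusted p = 0.000774). From 16 to 24 HPI, Pou4f1 was higher by 0.22 (adjusted p = 0.00611), Isl1 by 0.34 (adjusted p = 0.00144) and Isl2 by 0.61 (adjusted p = 0.00186), in 3 of 3 replicates each. None of the 9 calls held without the replicate block, where each difference kept its direction and was of similar size, such as -0.45 for Etv1 from 8 to 16 HPI and 0.62 for Isl2 and -0.85 for Runx1 from 16 to 24 HPI (adjusted p = 0.608, 0.436 and 0.59). The call on Prdm12 from 8 to 16 HPI was also lost with upper-quartile factors, with a filter of at least 10 counts over all libraries, and when any 1 of 5 of the 6 libraries compared was left out. The call on Runx1 from 8 to 16 HPI was also lost by DESeq2's Wald test and when any 1 of 4 libraries was left out, and that of Pou4f1 from 16 to 24 HPI without 16 HPI replicate 1.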

How the results depend on the processing

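The replicate block decided the calls. With no replicate block, 0 members passed at 8, 16 and 24 HPI, between 8 and 16 HPI, between 16 and 24 HPI and over all times together, where 4, 5, 5, 3, 6 and 8 passed with it, and 0 passed at 1 and 3 HPI. With the compared groups alone, 1 member passed at 1 HPI (Etv1), 1 at 8 HPI (Isl2) and 3 at 16 HPI (Etv1, Prdm12 and Runx1), while at 24 HPI 7 passed, the 5 and also Etv1 (-0.18, adjusted p = 0.0277) and Shox2 (0.43, adjusted p = 0.0276), and between 8 and 16 HPI 4 passed, the 3 and also Isl2 (0.35, adjusted p = 0.0142). With each library left out in turn, 0 passed at 1 and 3 HPI, between 1 and 3 at 8 HPI, 4 and 5 at 16 HPI, 3 and 5 at 24 HPI, 1 and 3 between 8 and 16 HPI, 5 and 6 between 16 and 24 HPI, and 6 and 9 over all times. Runx1 at 16 HPI passed under 14 of 15 alternatives, with values between 1.23 and 1.57, and failed only without the block (1.28, adjusted p = 0.141). Etv1 and Prdm12 at 16 HPI likewise failed only there, with 0.482 and 0.0973 as adjusted p. No passing value changed direction. The low counts of Runx1 and the 3 libraries per group limit how small a change could be seen.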
